A study of Danio rerio with 2 samples.

Results

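The open sites on the long arm of zebrafish chromosome 4 were taken as all ATAC-seq peaks that start at or beyond 27000000 on that chromosome in GRCz10. Peaks of the 2 replicate lists that overlapped by at least 1 bp were joined into regions, which gave 416 regions of 35191 on the 25 autosomes. They came from 388 of 33700 nuclear peaks in replicate 1 and from 143 of 15814 in replicate 2. Position alone chose them, so their strength, width and recovery did not enter the rule. Density and spacing are read from these same positions, and the rules were chosen with earlier results of these data known.

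The series profiled blood stem and progenitor cells of the line Tg(CD41:GFP,gata1:dsRed), sorted by flow cytometry for the CD41 reporter and against the gata1 reporter (CD41+gata1-). ATAC-seq lets a transposase insert sequencing adapters into DNA that is not packed away, so a pile of reads marks open chromatin. Each library was made from 50000 fresh cells with 11 PCR cycles, and the labels give 1 group of 2 replicates and no other treatment or genotype. The tag 3m in the titles is not explained there. Whether the replicates were separate animals or separate sorts is not stated, and differences between the lists may therefore be technical. The CD41 reporter also marks thrombocytes, and the labelled cell type was not checked against marker genes here, since no annotation of the files' build was used. Replicate 1 was the deeper library, with a genome-wide background of 1.32 extended reads per position against 0.578 in replicate 2.

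As background, the long arm of chromosome 4 is a large heterochromatic block of the zebrafish genome. Heterochromatin is compacted, carries repressive histone marks and is copied late in S phase. This arm is known for repeats, for tandem arrays of small RNA genes, and for large families of zinc finger and immune receptor genes, while genes with a single copy are few. In wild strains the end of the same arm carries a sex-linked region.

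The long arm held few open sites for its length. It made up 3.70% of the span of the autosomes and carried 1.18% of all regions and 0.796% of those in both lists. There were 8.39 regions per Mb on the arm, 28.4 on chromosome 4 before 27 Mb and 26.9 on the other 24 autosomes. The ratio of the arm to the other autosomes was 0.311 for merged regions, 0.303 for replicate 1 peaks alone and 0.238 for replicate 2 peaks alone. Open regions covered 0.277% of the arm's bases, against 1.02% before 27 Mb and 0.962% elsewhere. Among 25 other parts (the 24 other autosomes and chromosome 4 before 27 Mb), the lowest density was 21.6 regions per Mb, on chromosome 22. No test was run for this or any other difference between parts of the genome, since 2 libraries of 1 group give no groups to permute and sites within a library are not replicates. Closed chromatin cannot be told apart here from sequence that is missing from the assembly or where reads could not be placed.

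**Figure D1:**
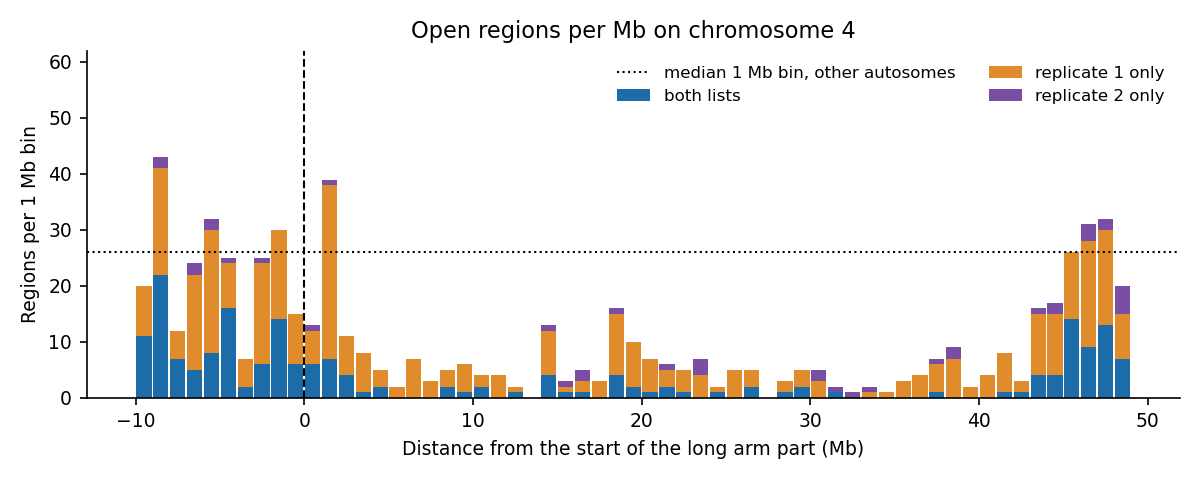
Open regions per 1 Mb bin of chromosome 4 (y axis), from 10 Mb before the start of the long arm part (dashed line at 0) to its last whole bin (x axis, Mb), split into regions of both lists and of a single list; the dotted line is the median bin of the other autosomes, at 26 regions. The bins hold at most 16 regions from 3 Mb to 43 Mb and 16 to 32 in the 6 bins after that.

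The 27 Mb limit did not fall on a step in the data. The 3 bins of 1 Mb before it held 25, 30 and 15 regions and the 3 bins after it 13, 39 and 11. The last region below the limit, at 26879294 to 26880145, was in the replicate 1 list only with a fold of 6.02. The first above it, at 27109481 to 27109683, was in the replicate 2 list only with a fold of 5.40. The counts fell further on, to 8 regions in the bin from 30 Mb and 5 in the next. When the arm was counted from 30 Mb, its density ratio to the other autosomes was 0.281.

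Open sites were unevenly spread within the arm. The 3 Mb up to 30 Mb held 63 regions, or 21.0 per Mb. The 40 Mb from 30 to 70 Mb are 80.6% of the arm and held 192 regions, 46.2% of its total, or 4.80 per Mb. The last 6.60 Mb held 161 regions, or 24.4 per Mb. Blocks of the same length at the ends of the other 24 autosomes had 18.5 to 33.8 regions per Mb with a median of 27.1, and 3 of the 24 were below the end of chromosome 4. These 3 zones were drawn with their counts already known, so the contrast between them is a description. Of the arm's 49 whole bins, 28 had at most 5 regions (57.1%), against 10 of 1250 bins (0.800%) on the other autosomes. Bins with no region numbered 2 on the arm and 1 on the other autosomes.

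The distance from one region to the next had a median of 42.1 kb on the arm, 16.8 kb before 27 Mb and 19.5 kb on the other autosomes. The median among the 25 other parts was at most 22.8 kb, on chromosome 12. With replicate 1 peaks alone the arm's median was 45.6 kb, and with replicate 2 peaks alone it was 95.9 kb. At short range the arm differed little in the share of distances. It had fewer of them per Mb, with 43 under 1 kb in 49.6 Mb against 2969 in 1263 Mb on the other autosomes. Distances under 1 kb made up 43 of 415 on the arm (10.4%), 9.28% before 27 Mb and 8.74% elsewhere, and the closest regions were 8 bp apart.

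**Figure D2:**
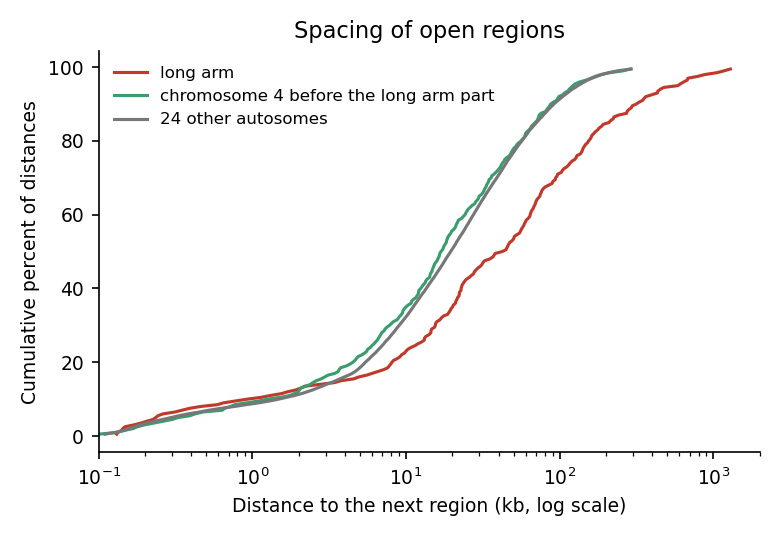
Cumulative percent of distances between neighbouring regions (y axis) against the distance in kb (x axis, log scale) for the long arm, the rest of chromosome 4 and the 24 other autosomes, drawn from the 0.5th to the 99.5th percentile. The 3 curves run together up to a few kb and the long arm curve then lies to the right, with a median of 42.1 kb against 16.8 and 19.5 kb.

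Stretches of 500 kb or more without any region numbered 23 on the arm. They summed to 19.9 Mb, or 40.2% of its length. Chromosome 4 before 27 Mb had none and the other autosomes had 16 in all, which made up 0.937% of their length. No other part had more than 3. All 23 lay between 31 and 70 Mb. The longest ran from 59087776 to 60619435, over 1532 kb, and was bounded by a replicate 2 peak of fold 4.32 and a replicate 1 peak of fold 4.31. The next were 39829825 to 41130001 (1300 kb), 38423734 to 39714948 (1291 kb), 53939577 to 55181212 (1242 kb) and 36180632 to 37353891 (1173 kb). In the last of these, the right-hand border was among the strongest sites of the arm, with folds of 21.6 and 12.9. The arm held 7 stretches of at least 1000 kb. The other autosomes held 2, and the longer of them, on chromosome 3, exceeded all on the arm with 1674 kb. When the regions of both lists alone were counted, the longest stretch on the arm without one was 58565188 to 64467741, over 5903 kb. The same measure reached 2506 kb on the other autosomes.

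Islands were counted as runs of at least 5 regions in which each lies within 100 kb of the next. The arm had 21, with 250 of its 416 regions (60.1%), and they covered 12.9% of its length. On the other autosomes 93.0% of regions lay in such runs, and before 27 Mb 92.4%. Regions with no neighbour within 100 kb were 58 on the arm (13.9%) and 1.27% on the other autosomes, and 52 of the 58 lay between 30 and 70 Mb. Replicate 1 peaks alone gave 21 islands and replicate 2 peaks alone gave 7. By zone, 3 islands lay before 30 Mb, 8 between 30 and 70 Mb and 10 beyond.

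The largest island ran from 73875530 to 75747633, over 1872 kb, and held 56 regions, 24 of them in both lists. Next came one of 38 regions at 27907641 to 28755217, with 9 in both lists. Most of the next in rank also lay beyond 70 Mb. That at 73485205 to 73747812 held 16 regions with 5 in both lists. The one at 72347773 to 72667255 had 13 with 7 in both, and that at 71920191 to 72231208 had 12 with 6 in both. Islands of 11 regions lay at 70516757 to 70791985 and at 45198583 to 45484920, each with 4 in both lists. The latter was the largest between 30 and 70 Mb. Of the pair with 10 regions, that at 71229994 to 71401404 had 1 in both lists and that at 73061158 to 73327481 had none. In all, 3 of the 21 islands held no region of both lists.

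**Figure D3:**
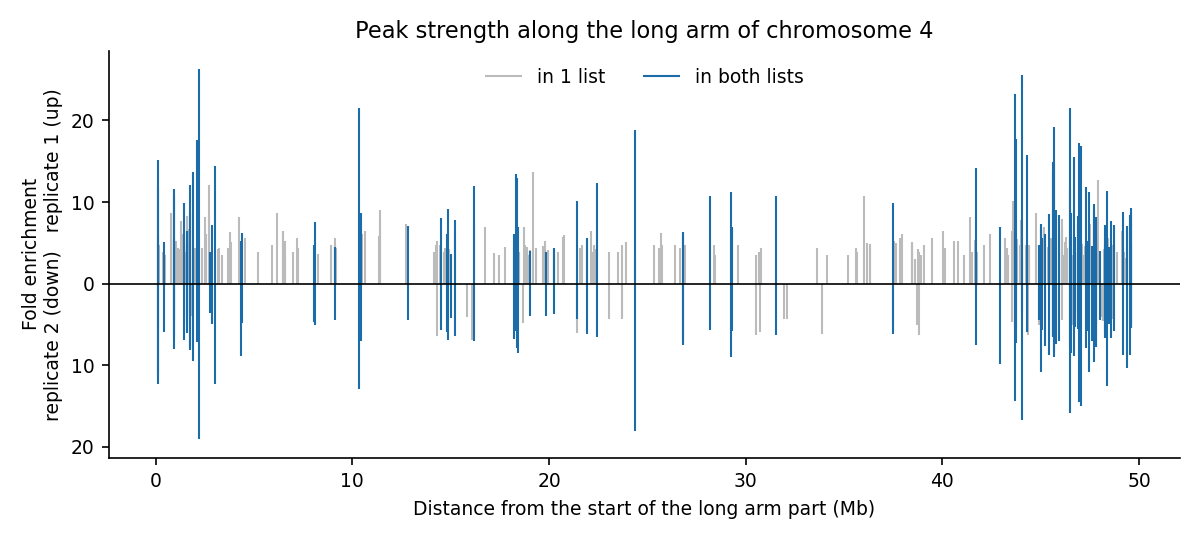
Fold enrichment of each region of the long arm (y axis, replicate 1 upwards and replicate 2 downwards from 0) against the distance from the start of the long arm part (x axis, Mb); blue stems are regions in both lists and grey stems regions in a single list. Tall blue stems stand at the beginning and the end of the arm, with isolated ones between, the highest at 26.3 in replicate 1 and 19.1 in replicate 2.

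Peak strength is given by the fold enrichment that the authors' peak caller wrote. It was read as the summit pileup plus 1, divided by the local background plus 1. At a given plain ratio of summit to background, the added 1 lowers the fold more where the background is lower. On the arm it ran from 2.5 to 26.3 in replicate 1, with quartiles of 4.31 and 6.90, and from 3.49 to 19.1 in replicate 2, with quartiles of 4.92 and 7.63. Ratios of the arm's median to that of the other autosomes were 0.899 in replicate 1 and 0.942 in replicate 2. For the median summit pileup the same ratios were 0.867 and 0.846, and the local background, given below, was also lower on the arm. The part of the added 1 in the lower fold was not tested. In the merged regions the arm's median fold was below that of each of the 25 other parts in both replicates, the nearest being chromosome 18. Peaks with a fold under 5 were 47.9% of the arm's replicate 1 list against 35.5% on the other autosomes, and 25.9% against 17.8% in replicate 2. Peaks with a fold of 12 or more were 27 of 388 in replicate 1 (6.96% against 10.6%) and 11 of 143 in replicate 2 (7.69% against 7.88%). Before 27 Mb, folds under 5 made up 33.1% in replicate 1 and 18.1% in replicate 2. Folds of 12 or more made up 8.96% and 6.49% there, so in replicate 2 the arm had the larger share of them.

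The local background under the arm's peaks was low. Its median was 0.859 times that of the other autosomes in replicate 1 and 0.904 times in replicate 2. At 39.7% of the arm's replicate 1 peaks it sat at the genome-wide floor, against 22.4% before 27 Mb and 27.5% elsewhere. In replicate 2 the shares were 12.6%, 6.49% and 8.75%. Between 30 and 70 Mb the shares were 50.9% in replicate 1 and 19.2% in replicate 2. In the merged regions, the arm's median background in replicate 1 was 1.44, against 1.56 or more in each of the 25 other parts. In replicate 2 it was 0.940, as on chromosomes 2, 16, 22 and 25, and chromosome 23 was lower with 0.920. The part of read placement and of depth in these values was not tested.

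Widths gave no common direction. The median peak of the arm was 253.5 bp wide against 283 bp on the other autosomes in replicate 1, and 326 against 323 bp in replicate 2. Within classes of equal fold, the arm's median was the narrower in 6 of 6 classes in replicate 1 and in 2 of 6 in replicate 2. Peaks of exactly 200 bp, the narrowest in either list, were 20.4% of the arm's replicate 1 peaks against 14.1% on the other autosomes. In replicate 2 the shares were closer, 14.7% on the arm against 13.3%. Before 27 Mb they were 14.9% in replicate 1 and 14.9% in replicate 2, and the median widths there were 286 and 307 bp.

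Of the 416 regions, 109 were in both lists, 274 in replicate 1 only and 33 in replicate 2 only. The share in both was 26.2% (95% Wilson interval 22.2 to 30.6), beside 38.9% over all regions of the genome. With each list cut to an equal length of 15814 peaks, kept by q value, 81 of 189 regions of the arm were in both (42.9%, 36.0 to 50.0), beside 54.8% on the other autosomes. With the full lists it was 42.0% before 27 Mb and 39.0% on the other autosomes, and the 25 other parts ran from 36.0% on chromosome 9 to 43.4% on chromosome 3. Within the arm it was 27% up to 30 Mb (17.6 to 39.0), 18.2% between 30 and 70 Mb (13.4 to 24.3) and 35.4% beyond (28.4 to 43.1). Regions inside islands were in both lists in 31.2% of cases (25.8 to 37.2, n = 250) and those outside in 18.7% (13.5 to 25.3, n = 166). The other autosomes had the same order, with 39.9% and 27.1%. On the arm, islands held 50 of 63 regions up to 30 Mb and 52 of 192 between 30 and 70 Mb. Beyond 70 Mb they held 148 of 161. Island membership was thus mixed with zone on the arm, and these were not separated. Intervals cover counting error only, since they treat regions as independent although all come from the same 2 libraries. The reads also carried no molecular identifiers.

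The lower share was set beside the lower fold of the arm's peaks. Applying the shares of the other autosomes in 6 fold classes to the arm's own mix of classes gave 34.4% of replicate 1 peaks, between the 29.4% counted on the arm and the 42.1% counted on the other autosomes. For replicate 2 peaks the 3 values were 84.8%, 76.9% and 87.8%. Classes of equal fold are not classes of equal read number, since a given fold rests on fewer reads where the local background is lower. The arm's median background was 1.46 against 1.70 in replicate 1 and 0.940 against 1.04 in replicate 2. The cause of the lower share was not tested. Within a class, the arm's replicate 1 peaks were found again less often in 6 of 6 classes, and the arm's interval held the other autosomes' value in 5 of them. At folds of 6 to 8, for example, 26 of 66 were found again (39.4%, 28.5 to 51.5) against 47.6%. At folds of 12 or more, 24 of 27 were (88.9%, 71.9 to 96.1) against 96.3%, just above that interval. In replicate 2 the arm was lower in 3 of 6 classes. At folds of 6 to 8 its share was 36 of 45 (80.0%, 66.2 to 89.1) against 94.8%, and at folds of 4 to 5 it was 14 of 30 (46.7%, 30.2 to 63.9) against 66.4%, and both intervals lay below the other autosomes' value. All 30 replicate 2 peaks of the arm with a fold of 8 or more had a partner. The intervals treat peaks of the same 2 libraries as independent and were not corrected over the classes. They describe the counts and are not a test.

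**Figure D4:**
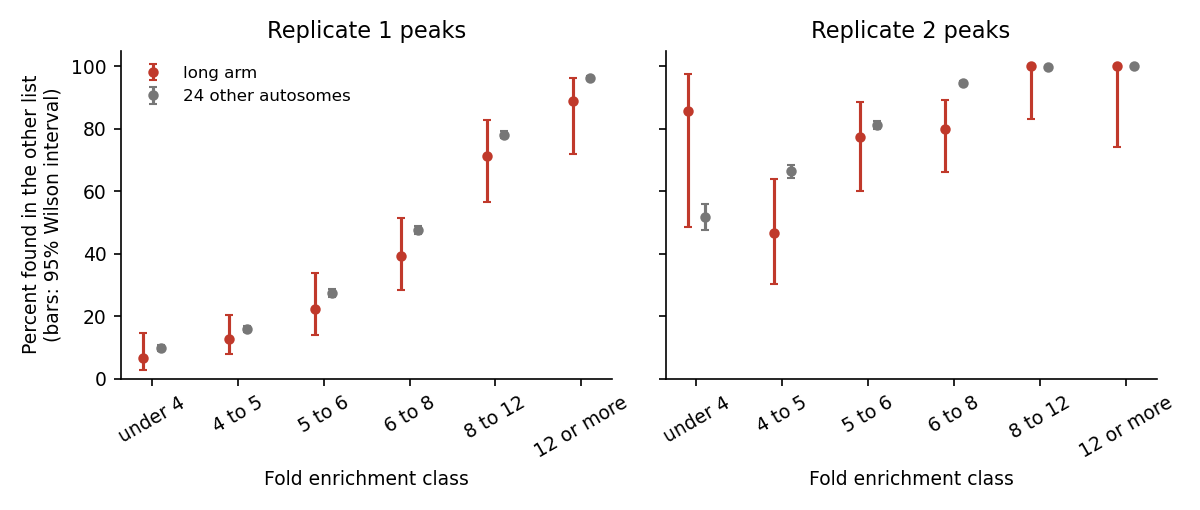
Percent of peaks found in the other list (y axis, bars are 95% Wilson intervals) by class of fold enrichment (x axis) for the long arm and the 24 other autosomes, replicate 1 on the left and replicate 2 on the right. The share rises with fold in both parts of the genome, from 6.58% to 88.9% for replicate 1 peaks of the arm.

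Where both lists had a site, its summits lay close together, which the overlap required of a pair favours by itself. The arm had 103 one-to-one pairs. Their median summit distance was 31 bp, with 84.5% of pairs at 150 bp or less, against 28 bp and 88.7% on the other autosomes. Across these 103 pairs, which share their libraries, the Spearman correlation of fold between replicates was 0.701, beside 0.722 across the pairs of the other autosomes. The fold was higher in replicate 1 in 72 of the 103 pairs (69.9%), beside 71.0% before 27 Mb and 74.7% on the other autosomes. The median ratio of replicate 1 to replicate 2 over the arm's pairs was 1.83 for pileups and 2.06 for backgrounds. The median background ratio thus exceeded the median pileup ratio, although the fold was more often higher in replicate 1. The part of the added 1 in this was not tested.

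The strongest site of the arm in both lists lay at 29209667 to 29210082, and reached folds of 26.3 (replicate 1) and 19.1 (replicate 2). Its summits were covered by 144 and 57 extended reads and stood 5 bp apart, and the nearest other region was 114 kb away. It ranked 50 of 13698 regions of both lists by the lower fold of the pair. The second, at 51355066 to 51355433, lay in the sparse zone with folds of 18.9 and 18.0. Its neighbours were 431 kb to the left and 15.6 kb to the right. The third lay at 71066218 to 71066704 with 25.6 and 16.8, and its summits were 1 bp apart.

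A group of 4 further strong sites also lay beyond 70 Mb. Folds were 21.5 and 15.9 at 73504251 to 73504969, and 16.9 and 15.0 at 74034549 to 74035342. They were 17.2 and 14.5 at 73930222 to 73930771, and 23.3 and 14.4 at 70691432 to 70692190. The remaining members of the 10 strongest were 37353892 to 37354463 (21.6 and 12.9), 30012187 to 30012904 (14.4 and 12.3) and 27139757 to 27141227 (11.7 and 12.4). The last of these was the only one of the 10 with the higher fold in replicate 2, and the merged region was 1471 bp wide. By zone the 10 divided into 2, 3 and 5, and 6 of them lay in islands. Of all 109 regions of the arm in both lists, 17, 35 and 57 lay in these zones and 78 in islands. The 10 strongest were thus spread much like the others by zone and were not more often in islands. Of the 1000 strongest regions of both lists genome-wide, 8 were on the arm (0.800%), close to its 0.796% of all such regions.

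In the middle of the arm, between 35 and 65 Mb, 30 regions were in both lists. The lower fold of the pair ran from 3.67 to 18.0 with a median of 5.85. After the sites at 51355066 and 37353892, the next was at 56232209 to 56232552 with folds of 11.2 and 9. It was followed by 45348483 to 45348772 with 12.9 and 7.93, 43167530 to 43167831 with 11.9 and 6.97, and 37424388 to 37424655 with 8.62 and 6.97. The site at 41860601 to 41861145 had 9.12 and 6.94, and that at 45414872 to 45415127 had 6.90 and 8.54. The last of the 10, by the same order, were 49428628 to 49428934 with 12.4 and 6.49, and 42207715 to 42208411 with 7.76 and 6.42. Summit pileups at these 8 weaker sites were 15 to 79 extended reads in replicate 1 and 10 to 23 in replicate 2, so their heights rest on few reads.

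Sites of a single list were weak and narrow, on the arm as on the other autosomes. On the arm their median fold was 4.74 in replicate 1 (n = 274) and 4.84 in replicate 2 (n = 33). The arm's shared peaks had medians of 7.74 and 6.60. Median widths were 229 and 221 bp, against 379 bp for the arm's shared peaks in either replicate. Single-list peaks of the other autosomes had median folds of 4.80 and 4.90 and widths of 242 and 211 bp. A median of 11 and 8 extended reads covered the summits of the arm's single-list sites. The strongest of replicate 1 lay at 46167422 to 46167679, where the fold was 13.6 and the pileup 32. Those at 74908150 to 74908421 (fold 12.7, pileup 46) and 29713965 to 29714467 (fold 12.1, pileup 27) came next. In replicate 2 they lay at 74020175 to 74020394, where the fold was 7.08, at 43100051 to 43100266, where it was 6.88, and at 41284369 to 41284572, where the fold was 6.4. The last of these was 8 bp from a replicate 1 region.

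The heights of shared sites were compared between the libraries by an exact binomial test on the 2 summit pileups of each pair, over all 13094 nuclear pairs. It compares 2 libraries, not conditions, and treats extended reads as independent. On the arm, 2 of 103 pairs passed an adjusted p of 0.05, both higher in replicate 1, beside 0.428% of all pairs and 0.374% of all pairs for that direction. The pair at 28576120 to 28576720 had 121 extended reads against 19 at its summit in replicates 1 and 2, and the summed pileups of all pairs gave a ratio of 2.12 (exact binomial test, adjusted p = 0.000338). Its neighbour at 28579834 to 28580558 had 87 and 14 (exact binomial test, adjusted p = 0.0135). The deposited folds of both pairs were nearly equal, 6.39 and 6.02 for the first and 4.96 and 4.84 for the second. Between replicates 1 and 2 the pileups had ratios of 6.37 and 6.21, and the local backgrounds 7.79 and 7.97. Without the added 1, summit over background was thus lower in replicate 1 at both pairs. Only 26 of the 103 pairs had at least 60 extended reads in sum, so smaller differences were not detectable at most sites. With a −log10 q of at least 10 asked of both peaks, no pair of the arm passed. That filter leaves out pairs with a weaker peak before the test, so the result does not show that the 2 pairs failed a second test.

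Both pairs lay in a stretch of 41.0 kb within the 38-region island where the local background of replicate 1 was raised. From 28573779 to 28614807, 12 regions followed each other at replicate 1 backgrounds of 2.64 to 18.1, each at least 2 times the genome-wide value, with the highest value 13.7 times the genome-wide one. In replicate 2 the 3 regions found there had backgrounds of 2.32, 2.10 and 1.04, and the highest was 4.01 times the genome-wide one. The background ratios of the 3 pairs were 7.79, 7.97 and 6.83, against a median of 2.06 over the arm's pairs. The next region to the left, 64.6 kb away, was at the genome-wide background of 1.32, and the next to the right, 8.25 kb away, at 1.68. Such ratios of 5 or more occurred in 3 pairs of the arm, all of them here, and in 39 of 12688 pairs of the other autosomes. The other 9 regions of the stretch were in the replicate 1 list only, with folds from 2.54 to 8.30. Without these 12 regions, the part of the arm up to 30 Mb held 51 regions, or 17 per Mb. The stretch was picked out after its values were seen.

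**Figure D5:**
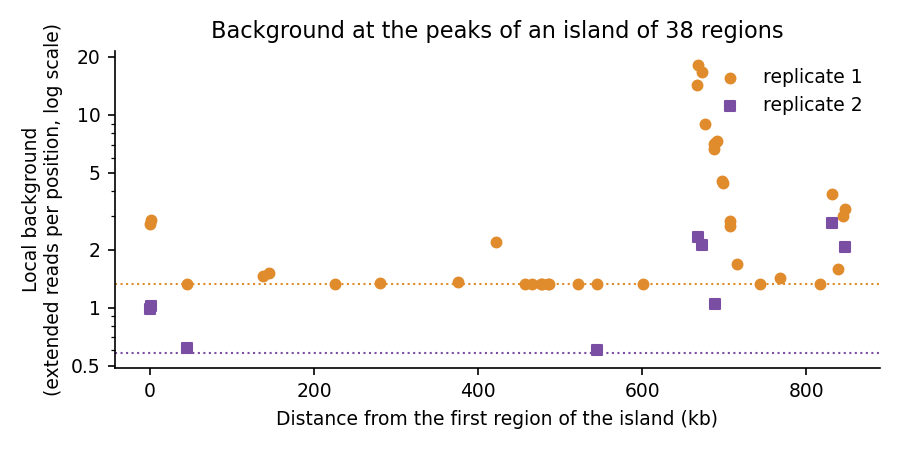
Local background at each peak in extended reads per position (y axis, log scale) against the distance from the first region of the island at 27907641 (x axis, kb), circles for replicate 1 and squares for replicate 2; dotted lines are the genome-wide backgrounds of 1.32 and 0.578. Replicate 1 rises to 18.1 and falls back within 41.0 kb, while replicate 2 reaches 2.32 in the same place.

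Raised background was also seen near the chromosome end. Of the arm's 388 replicate 1 peaks, 12 had a local background at least 5 times the genome-wide one (3.09%, against 1.47% on the other autosomes), 8 of them in the stretch just described. The other 4 lay between 76320112 and 76326009, with backgrounds of 8.28 to 9.80, folds of 2.5 to 3.15 and no replicate 2 peak. Without a peak, the background of replicate 2 is not known there. At 76377025 to 76377726, in the same island of 7 regions, the summit had 41 extended reads in replicate 1 and 43 in replicate 2. The local background at this pair was raised in both, at 4.98 and 3.26, against genome-wide values of 1.32 and 0.578. The pair did not pass the test against the ratio of 2.12 (exact binomial test, adjusted p = 0.0767). Beyond that island, 8 regions lay up to the last peak at 76596725 to 76597242, 4 of them in both lists.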

How the data were processed

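Each replicate had its own peak list, deposited by the authors, and the lists were not pooled. The submitters' processing notes name Bowtie2 2.5.0, Picard, SAMtools 1.9 and MACS2 without roles, and the build GRCz10. Caller settings, its threshold and any transposase shift of reads are not given in the sources used here. The deposited fold enrichment was read as the summit pileup plus 1, divided by the local background plus 1. The score (10 times the −log10 q) and both −log10 p and −log10 q are the authors' deposited values. Summit pileups and backgrounds, in reads extended by the caller, were recovered from the deposited fold and −log10 p under a Poisson tail, within 0.0002, at 33700 and 15814 nuclear peaks. A second pileup matched at 29 replicate 2 peaks, 1 on the arm. Mitochondrial peaks were left out, and nothing else was filtered. Each chromosome was taken to end at its last peak end (76597242 on chromosome 4). Positions are 1-based.

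Densities, medians and shares are descriptions. Heights were tested in SciPy 1.17.1 by the exact binomial test (two-sided), adjusted by Benjamini and Hochberg's method in statsmodels 0.14.6 and checked on simulated data. Regions were named by rule: the 10 strongest of both lists, the 3 strongest of each single list, 8 islands, 5 empty stretches, 10 shared regions between 35 and 65 Mb, pairs past the threshold and those next to 27 Mb. Others were chosen after their values were seen. Zones, members and rules were chosen with earlier results of these data known. Genes and sequences are not shown because no GRCz10 genome or annotation was used.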

Additional observations from a re-analysis of the deposited data

How the results depend on the processing

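No paired analysis was possible because there is a single group. Alternatives gave 45 values. Of these, 23 stayed (counts within 1.5 times, the shared percentage within its interval, others within 1 SD of the replicates), 20 moved and 2 reversed. For fold and width ratios, the reported value is the mean of the replicates, so a replicate alone could stay or reverse but not move. Each SD rests on 2 values. That of the median spacing was 35.6 kb, so 64.7 kb with a −log10 q of at least 5 counted as stayed. Stricter lists hold fewer peaks by construction. With a −log10 q of at least 5, there were 233 regions, a density ratio of 0.255, 11 islands and 34.8% of regions in both lists. With at least 10 there were 107 regions, a density ratio of 0.210, a fold ratio of 0.952, a median spacing of 139 kb, 3 islands and 30.8% in both lists, and the width ratio, 0.953 as the mean of the replicates, reversed to 1.09. Each replicate alone gave 143 to 388 regions, density ratios of 0.238 to 0.303, width ratios of 0.896 to 1.01 (reversed with replicate 2 alone), median spacings of 45.6 to 95.9 kb, 7 to 21 islands, fold ratios of 0.899 to 0.942 and 24 to 27 empty stretches. The share in both lists was 18.3% with reciprocal overlap of 50%, 21.2% with summits within 150 bp and 42.9% with lists of equal length (54.8% on the other autosomes). Empty stretches numbered 54 from 250 kb and 7 from 1000 kb, by construction. Island distances of 50 and 200 kb gave 17 and 18 islands. Pairs of the arm differing in height numbered 3 with the ratio of genome backgrounds and 2 with the median ratio. The number was also 2 with p as the smaller tail doubled (chosen after seeing the data). It was 0 when both peaks needed a −log10 q of 10, a filter that leaves out pairs with a weaker peak before the test. Where the construction does not show it, the cause was not tested. The density ratio stayed below 1 under every alternative run for it. The median summit of the arm rested on 13 extended reads in replicate 1 and 11 in replicate 2.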
